A study of Schmidtea mediterranea with 58 samples.

Results

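The 8 mitochondrial transcripts examined here are those that the methods of the study list by identifier for measuring the mitochondrial content of single cells, namely dd_Smed_v6_258_0_1, dd_Smed_v6_289_0_1, dd_Smed_v6_292_0_1, dd_Smed_v6_297_0_1, dd_Smed_v6_344_0_1, dd_Smed_v6_505_0_1, dd_Smed_v6_753_0_1 and dd_Smed_v6_957_0_1. They are written below as dd_258 and so on. The methods state a larger number of mitochondrial genes than the 8 identifiers they list, so sums over the 8 are partial. All 8 were rows of the bulk RNA-seq count table, which holds 28742 transcripts of the planarian *Schmidtea mediterranea*, and all 8 were among the 20129 transcripts that passed the filter on low counts. The files give these rows no gene name, so they are described by identifier, and no sequence is printed.

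RNA was measured in 58 libraries of anterior-facing wound tissue from post-pharyngeal fragments of strain CIW4, each made from 5 wounds. All animals were fed liver with double-stranded RNA 8 times, which for 29 control libraries matched the *C. elegans* gene *unc-22* and for the other 29 matched *equinox* (dd_20318), a planarian gene that encodes a predicted secreted protein. Tissue was collected freshly cut (0 hpa, hours post amputation) and after 3, 6, 16, 24 or 48 h, with 5 libraries per treatment and time except control at 48 hpa and *equinox* RNAi at 0 hpa, which had 4 each. The labels do not say that replicates came from separate animals or cultures, so every p-value below measures the spread between these libraries, which may be technical.

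Mitochondria carry a small genome of their own, which in animals encodes ribosomal RNAs, transfer RNAs and a few subunits of the respiratory chain and ATP synthase. The remaining mitochondrial proteins are encoded in the nucleus, made in the cytosol and imported. Animal mitochondrial messenger and ribosomal RNAs are often polyadenylated, so libraries made from polyadenylated RNA contain them, and the share of reads that falls on them is a common measure of cell condition in single-cell work. In bulk tissue, fewer cells rich in mitochondria and less mitochondrial RNA per cell cannot be told apart.

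The libraries held 1312330 to 38053378 counts, with a median of 15070578, and 3 of them held fewer than 5000000. As a group mean, the targeted transcript dd_20318 went against the labels early. Its mean in the libraries labelled *equinox* RNAi was 18.5 ± 17.2 CPM (the customary scaling of a count by its library total; SD, n = 4) at 0 hpa and 16.4 ± 14.2 CPM (n = 5) at 3 hpa, against 6.11 ± 1.21 and 5.66 ± 1.07 CPM in control (n = 5 each). Single libraries labelled *equinox* RNAi ranged from 2.95 to 38.3 CPM at 0 hpa and from 1.64 to 32.7 CPM at 3 hpa. Control libraries ranged from 4.56 to 7.75 and from 4.53 to 6.86 CPM. By the edgeR test given below, the difference was called at 3 hpa (adjusted p = 0.0203) and not at 0 hpa (adjusted p = 0.0797). From 6 hpa on the mean of dd_20318 was lower in the libraries labelled *equinox* RNAi, for example 1.45 ± 0.527 CPM (n = 5) against 7.22 ± 1.68 CPM (n = 4) at 48 hpa. The labels contradict themselves on the time of 5 libraries labelled *equinox* RNAi, replicate 1 of each time from 3 to 48 hpa, and the time in the title was used. Of lists for cell types the wound tissue could hold, 9 of 9 motile cilia transcripts and 3 of 3 muscle transcripts passed the filter.

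The share of a library that fell on the 8 transcripts lay between 0.264% and 0.652% of the library total. Its median over the 58 libraries was 0.384%, and it is only part of the mitochondrial share. In control the mean share at the later times was 1.15 to 1.62 times that at 0 hpa, and in the libraries labelled *equinox* RNAi it was 0.786 to 1.08 times that at 0 hpa. The counts behind a share ranged from 6873 to 202915 per library, and the widest 95% Wilson interval reached 0.0124 percentage points to either side. These intervals cover counting error only, and the SDs between libraries of a group ran from 0.00904 to 0.126 percentage points.

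At 0 hpa the 5 control libraries held shares of 0.343%, 0.339%, 0.355%, 0.357% and 0.339%. Those of the 4 libraries labelled *equinox* RNAi were 0.403%, 0.356%, 0.313% and 0.425%. The control libraries were tightly grouped and lay inside the range of the others.

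At 6 hpa the control shares were 0.368%, 0.383%, 0.652%, 0.581% and 0.438%. The libraries labelled *equinox* RNAi held 0.278%, 0.266%, 0.316%, 0.346% and 0.264%. Every library labelled *equinox* RNAi was below every control library at this time, and the mean share was 0.294 ± 0.0356% (SD, n = 5) against 0.484 ± 0.126% (n = 5), a ratio of 0.607.

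At 48 hpa the 4 control shares were 0.582%, 0.441%, 0.647% and 0.582%. The libraries labelled *equinox* RNAi held 0.371%, 0.366%, 0.341%, 0.364% and 0.445%. The groups overlapped only through control replicate 2 and *equinox* RNAi replicate 5, and the ratio of the means, 0.378 ± 0.0394% (n = 5) over 0.563 ± 0.0866% (n = 4), was 0.671.

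At 3 hpa the control shares were 0.374%, 0.473%, 0.524%, 0.441% and 0.420%. The libraries labelled *equinox* RNAi held 0.324%, 0.371%, 0.352%, 0.387% and 0.283%. All but replicate 4 (0.387%) were below every control library, with a ratio of the means of 0.769.

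At 16 hpa the shares overlapped widely, from 0.342% to 0.462% in control and from 0.302% to 0.495% in the libraries labelled *equinox* RNAi, with a ratio of 0.937. At 24 hpa they ran from 0.305% to 0.560% and from 0.385% to 0.434%, with a ratio of 0.874. Here the lowest library of both groups was control replicate 2.

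In order of the mean share, the lowest group was *equinox* RNAi at 6 hpa (0.294%), followed by *equinox* RNAi at 3 hpa (0.343 ± 0.0412%), control at 0 hpa (0.347 ± 0.00904%), and *equinox* RNAi at 16 hpa (0.373 ± 0.0744%), 0 hpa (0.374 ± 0.0501%) and 48 hpa. The upper end held control at 16 hpa (0.398 ± 0.050%), *equinox* RNAi at 24 hpa (0.405 ± 0.0182%), and control at 3 hpa (0.446 ± 0.0563%), 24 hpa (0.463 ± 0.0962%), 6 hpa and 48 hpa. Neighbouring groups in this order differed by less than the larger of their SDs, except *equinox* RNAi at 6 and 3 hpa, whose difference exceeded both SDs. No p-value is given for the summed share.

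**Figure D1:**
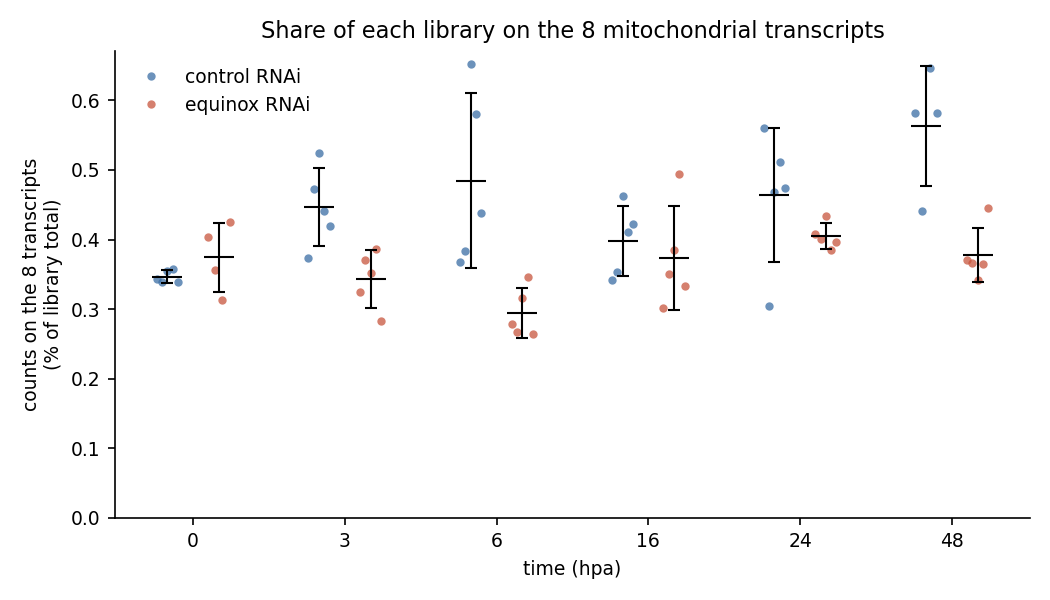
Counts on the 8 mitochondrial transcripts as a percent of the library total (vertical axis) for each of the 58 libraries, by time in hpa and RNAi treatment; points are libraries, wide ticks and bars are the group mean ± SD. At 6 hpa all 5 libraries labelled *equinox* RNAi (up to 0.346%) lie below all 5 control libraries (from 0.368%).

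The comparison of *equinox* RNAi with control at each time asked which of the 8 transcripts depended on the treatment. At 6 hpa all 8 estimates were below 0 (median log2 fold change -0.62, where the median of all transcripts tested was -0.00), and 5 of 8 were lower by edgeR's quasi-likelihood test with Benjamini-Hochberg adjustment over the 20129 transcripts. In that comparison 3.96% of all transcripts were called lower.

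dd_297 held 384, 347, 548, 503 and 362 CPM in control at 6 hpa. It held 225, 256, 306, 308 and 243 CPM in the libraries labelled *equinox* RNAi. The groups did not overlap, and the log2 fold change was -0.62 ± 0.10 (SE) with an adjusted p of 5.0e-05 by edgeR.

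dd_753 held 272, 259, 527, 289.9 and 196 CPM in control at 6 hpa. In the libraries labelled *equinox* RNAi it held 139.8, 125, 191, 184 and 141 CPM. Again the groups did not overlap, although the lowest control library (196) and the highest of the other group (191) were close, and the log2 fold change was -0.92 ± 0.18 (edgeR, adjusted p = 0.000852).

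dd_258 held 1827, 2093, 3741, 3249.6 and 2296 CPM in control at 6 hpa. The libraries labelled *equinox* RNAi held 1207, 1247, 1739, 1932 and 1552 CPM. Here the groups overlapped in 1 library of each, and the log2 fold change was -0.73 ± 0.17 (edgeR, adjusted p = 0.00485).

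The other transcripts called at 6 hpa were dd_289 and dd_344. dd_289 ranged from 269.7 to 424 CPM in the libraries labelled *equinox* RNAi and from 488 to 660.3 CPM in control, without overlap (log2 fold change -0.58 ± 0.17, edgeR, adjusted p = 0.0309). dd_344 ranged from 43.2 to 120.0 CPM against 106 to 187 CPM and overlapped through *equinox* RNAi replicate 1 (log2 fold change -0.83 ± 0.25, edgeR, adjusted p = 0.0346). In all, 3 of the 8 transcripts had groups that did not overlap, in a comparison where 2.63% of transcripts tested were lower without overlap.

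The call at 6 hpa depended on the model. When the 10 libraries of 6 hpa were fitted alone, none of the 8 was called (lowest adjusted p 0.0793 by edgeR), the 8 estimates stayed below 0 (median -0.63), and 46 of 16892 transcripts were called lower in the whole table. Leaving out control replicate 3 or 4, or *equinox* RNAi replicate 3 or 5, left 3 calls, which were dd_258, dd_297 and dd_753 each time. The control libraries at 6 hpa were also shallow, with 4691615 to 10741852 counts against 15753307 to 29363121 in the libraries labelled *equinox* RNAi, and the part of depth in the result was not tested. In control at 6 hpa the lowest totals were 4691615, 5615786 and 6114295 counts, in replicates 4, 5 and 3. These replicates held the highest shares, 0.581%, 0.438% and 0.652%. The shallowest control library held the highest share at 3 hpa (1312330 counts, 0.524%), 16 hpa (4785387, 0.462%) and 48 hpa (14971273, 0.647%). It did not at 0 hpa (5920170, 0.339%) or 24 hpa (10129410, 0.468%). Over all 58 libraries, deviations of the share and of log2 depth from their group means had a Pearson r of -0.20 (Spearman rho -0.14). The values were -0.30 (-0.26) over the 29 control libraries and 0.05 (0.11) over the 29 labelled *equinox* RNAi. These correlations are given as a description of libraries that enter both values.

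At 48 hpa all 8 estimates were again below 0 (median -0.56, against 0.00 for all transcripts tested), and 3 of 8 were called lower where 9.46% of all transcripts were. The 3 were dd_297, dd_753 and dd_258. dd_297 held 572, 492, 467 and 467 CPM in control and 368, 287, 299, 305 and 410.0 CPM in the libraries labelled *equinox* RNAi. The groups lay apart, with a log2 fold change of -0.55 ± 0.11 (edgeR, adjusted p = 0.000150).

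dd_753 held 594, 295, 416 and 304 CPM in control and 199, 205, 151, 174 and 322 CPM in the libraries labelled *equinox* RNAi. The groups overlapped through *equinox* RNAi replicate 5, and the log2 fold change was -0.91 ± 0.19 (edgeR, adjusted p = 0.000354).

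dd_258 held 2827, 2145, 2929 and 2868 CPM in control and 1616, 1633, 1477, 1825 and 2510.2 CPM in the libraries labelled *equinox* RNAi. *equinox* RNAi replicate 5 was above control replicate 2, and the log2 fold change was -0.55 ± 0.18 (edgeR, adjusted p = 0.0227). The call for dd_258 was lost without control replicate 3 or 4 and without *equinox* RNAi replicate 1, 2 or 3. It was also lost when the 5 libraries with contradictory times were dropped (edgeR, adjusted p = 0.0521) or moved to the other time (edgeR, adjusted p = 0.0601). Without control replicate 2 the count at 48 hpa rose to 6 of 8, and the share of all transcripts called in that fit was not counted.

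Among the transcripts not called at 48 hpa, dd_289 held 453 to 562 CPM in the libraries labelled *equinox* RNAi and 603 to 744 CPM in control, which makes 2 of 8 without overlap (with dd_297) where 6.75% of transcripts tested were lower without overlap. The 5 uncalled transcripts had adjusted p-values of 0.0701 to 0.199 by edgeR.

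The other times gave 1 call in all. At 3 hpa dd_753 held 259.8, 363, 389, 358 and 281 CPM in control and 257, 260.4, 165, 187 and 147 CPM in the libraries labelled *equinox* RNAi. It was the 1 of 8 called lower (log2 fold change -0.54 ± 0.18, edgeR, adjusted p = 0.0421), in a comparison with 5.55% of all transcripts lower, at a time when the mean of the targeted transcript went against the labels. The groups overlapped, and the call was lost without control replicate 2, 3 or 4 and without *equinox* RNAi replicate 3, 4 or 5.

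At 0 hpa none of the 8 was called by edgeR or DESeq2, with 0 at an unadjusted p under 0.05, where 0.949% of all transcripts were called lower, and 7 of the 8 estimates were above 0 (-0.08 to 0.32). At 16 hpa none was called by either tool, with 0 at an unadjusted p under 0.05 (0.298% of all transcripts lower), and the 8 estimates were all slightly below 0 (-0.17 to -0.04). At 24 hpa none was called by either tool, with 2 at an unadjusted p under 0.05 (0.671% of all transcripts lower), and the estimates ran from -0.63 to -0.11. The estimates were thus below 0 for all 8 transcripts at 6, 16, 24 and 48 hpa, with calls only at 6 and 48 hpa among these times. At 16 hpa not all 8 stayed below 0 when the 5 libraries with contradictory times were dropped or moved to the other time. The same held without libraries under 5000000 counts.

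**Figure D2:**
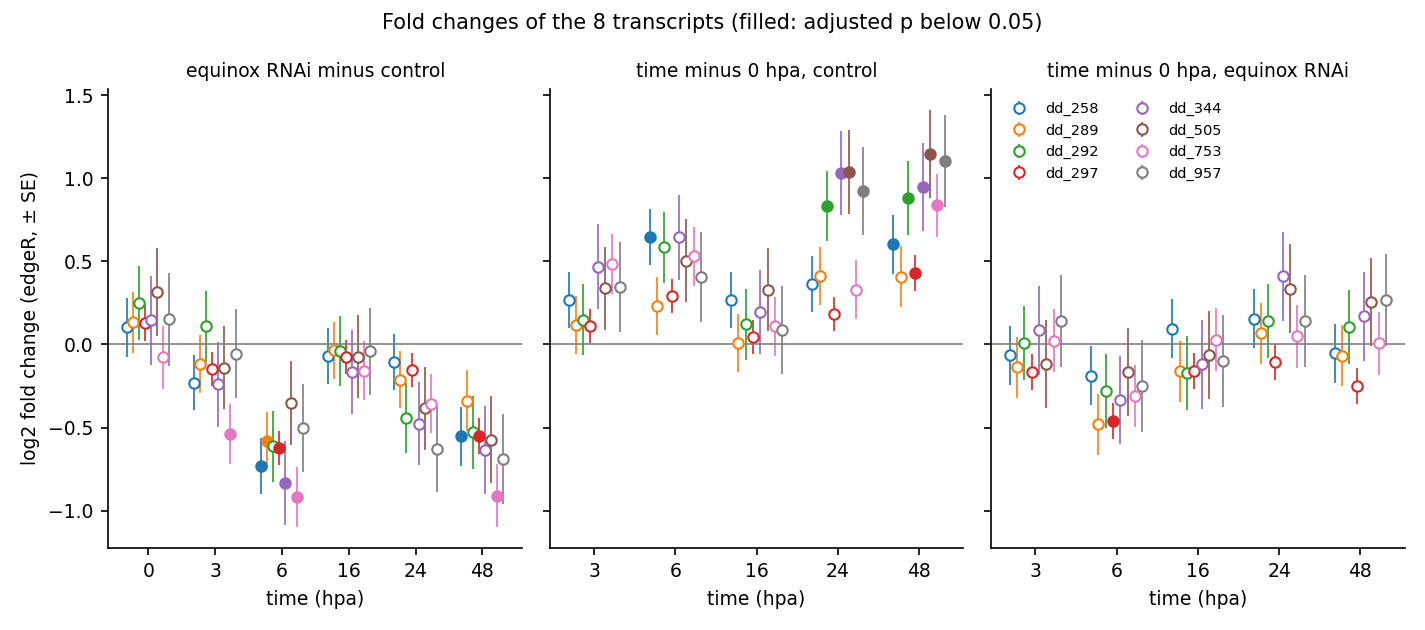
Log2 fold change ± SE from edgeR (vertical axis) of each of the 8 transcripts by time in hpa, for *equinox* RNAi minus control, and for each time minus 0 hpa within control and within *equinox* RNAi; filled points have an adjusted p below 0.05. The left panel shows 5 filled points at 6 hpa and 3 at 48 hpa, all below 0, and the middle panel 4 at 24 hpa and 7 at 48 hpa, all above 0.

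Within control animals, time after amputation was compared with 0 hpa. All 8 estimates were above 0 at every later time. None was called at 3 hpa by edgeR or DESeq2, with 1 at an unadjusted p under 0.05 (1.54% of all transcripts higher), and none at 16 hpa by either tool, with 0 at an unadjusted p under 0.05 (9.23% of all transcripts higher). Fitting the libraries of 0 and 3 hpa alone gave 3 calls at 3 hpa, dd_258, dd_344 and dd_753. That fit called 1845 of 16599 transcripts in either direction, 1040 of them lower. At 6 hpa 1 of 8 was called, where 5.21% of all transcripts were called higher. This was dd_258, which held 1763, 1686, 1844, 1824 and 1608 CPM at 0 hpa and the values given above at 6 hpa (log2 fold change 0.65 ± 0.17, edgeR, adjusted p = 0.00796). The 6 hpa libraries with 3741 and 3249.6 CPM, replicates 3 and 4, stood highest, and without replicate 4 no transcript was called. The count rose to 3 without replicate 1 or 5, to 4 without replicate 2 and to 4 by DESeq2. The share of all transcripts called in these fits was not counted, so a general rise in calls cannot be told apart. When the libraries of 0 and 6 hpa were fitted alone, dd_258 was not called (edgeR, adjusted p = 0.0569) and dd_344 was. In that fit 574 of 15445 transcripts were called in either direction, 203 of them lower.

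At 24 hpa 4 of 8 were called higher than at 0 hpa in control, where 15.3% of all transcripts were. The 4 were dd_292, dd_344, dd_505 and dd_957, none of which was called between treatments at 48 hpa. dd_505 held 329.9, 358, 500.4, 397 and 414 CPM at 0 hpa and 1085, 450.1, 708, 755 and 891 CPM at 24 hpa. Replicate 2 was the only one of the 5 libraries at 24 hpa that fell within the 0 hpa range, and the log2 fold change was 1.04 ± 0.25 (edgeR, adjusted p = 0.00142).

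dd_344 held 85.2, 96.0, 72.4, 102 and 104 CPM at 0 hpa and 251, 154, 156, 106 and 220.01 CPM at 24 hpa. These groups did not overlap, by a small margin at replicate 4 (log2 fold change 1.03 ± 0.25, edgeR, adjusted p = 0.00164). dd_292 ran from 101 to 129.7 CPM at 0 hpa and from 119.8 to 295 CPM at 24 hpa, overlapping through replicate 2 (log2 fold change 0.83 ± 0.21, edgeR, adjusted p = 0.00218). dd_957 ran from 30.5 to 56.1 CPM and from 47.4 to 111 CPM, overlapping in 2 libraries at 24 hpa (log2 fold change 0.92 ± 0.26, edgeR, adjusted p = 0.00619).

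At 48 hpa 7 of 8 were called higher than at 0 hpa in control, where 14.7% of all transcripts were called higher, and the values of all 8 lay above every 0 hpa library, where 14.4% of transcripts tested did so. dd_505 held 725, 553, 1262 and 1022 CPM, so the lowest of the 4 libraries exceeded the 500.4 CPM of the highest 0 hpa library (log2 fold change 1.15 ± 0.26, edgeR, adjusted p = 0.000632). dd_753 rose to the values given above for control at 48 hpa from 260.5, 228, 189.6, 238 and 183 CPM at 0 hpa (log2 fold change 0.84 ± 0.19, edgeR, adjusted p = 0.000428). dd_297 rose from 376, 368, 356, 360.4 and 350.3 CPM at 0 hpa to 467 CPM or more, with a log2 fold change of 0.43 ± 0.11 (edgeR, adjusted p = 0.00144).

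The rises of the other 4 called transcripts at 48 hpa ran from 0.60 ± 0.18 for dd_258 to 1.10 ± 0.28 for dd_957 on the log2 scale, with dd_292 at 0.88 ± 0.22 and dd_344 at 0.95 ± 0.27. dd_289 was not called (log2 fold change 0.41, edgeR, adjusted p = 0.0871), although its 603 to 744 CPM lay above the 438 to 543 CPM of 0 hpa. Without control replicate 3 of 48 hpa, dd_292 was no longer called.

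Within the libraries labelled *equinox* RNAi, the same comparison gave 1 call in 5 times. At 6 hpa dd_297 fell from 395, 399, 359 and 409 CPM at 0 hpa to 225, 256, 306, 308 and 243 CPM, without overlap (log2 fold change -0.46 ± 0.11, edgeR, adjusted p = 0.00351), the 1 of 8 called lower where 2.26% of all transcripts were. At 3, 16, 24 and 48 hpa none of the 8 was called by edgeR or DESeq2, with 0, 0, 0 and 1 at an unadjusted p under 0.05, where 1.37%, 12.2%, 5.96% and 6.71% of all transcripts were called in either direction. The estimates at 48 hpa ran from -0.25 to 0.27. The 4 libraries at 0 hpa that serve as the baseline here held 2.95 to 38.3 CPM of the targeted transcript.

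Whether the change since 0 hpa differed between the treatments was tested as an interaction of RNAi and time. All 8 estimates were below 0 at each of the 5 later times. At 16 hpa this failed with the 5 libraries with contradictory times moved to the other time, or without libraries under 5000000 counts. These tests share the 0 hpa libraries, and the comparisons between treatments share the control libraries with those over time. The signs are thus not separate pieces of evidence. All interactions also use the libraries labelled *equinox* RNAi at 0 hpa, where the mean of the targeted transcript went against the labels. One transcript passed, dd_297. Its interaction was -0.75 ± 0.15 on the log2 scale at 6 hpa (edgeR, adjusted p = 0.0154), with 1 of 8 called where 0.0199% of all transcripts were called lower, and -0.68 ± 0.15 at 48 hpa (edgeR, adjusted p = 0.00273), with 1 of 8 called where 3.09% were.

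At 6 hpa the dd_297 interaction was lost without *equinox* RNAi replicate 5 of 0 hpa, when the 5 libraries with contradictory times were dropped (edgeR, adjusted p = 0.0703) or moved to the other time (edgeR, adjusted p = 0.0816), and when the 4 groups were fitted alone (edgeR, adjusted p = 0.219). The separate fit of the 6 hpa interaction called 0 of 17694 transcripts in either direction. At 48 hpa the dd_297 interaction was called in each of the 8 other fits and in all 18 that left out 1 library. At 3, 16 and 24 hpa no interaction of the 8 was called by edgeR or DESeq2, with 0, 0 and 2 at an unadjusted p under 0.05, where 0%, 0.00497% and 0.154% of all transcripts were called lower.

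**Figure D3:**
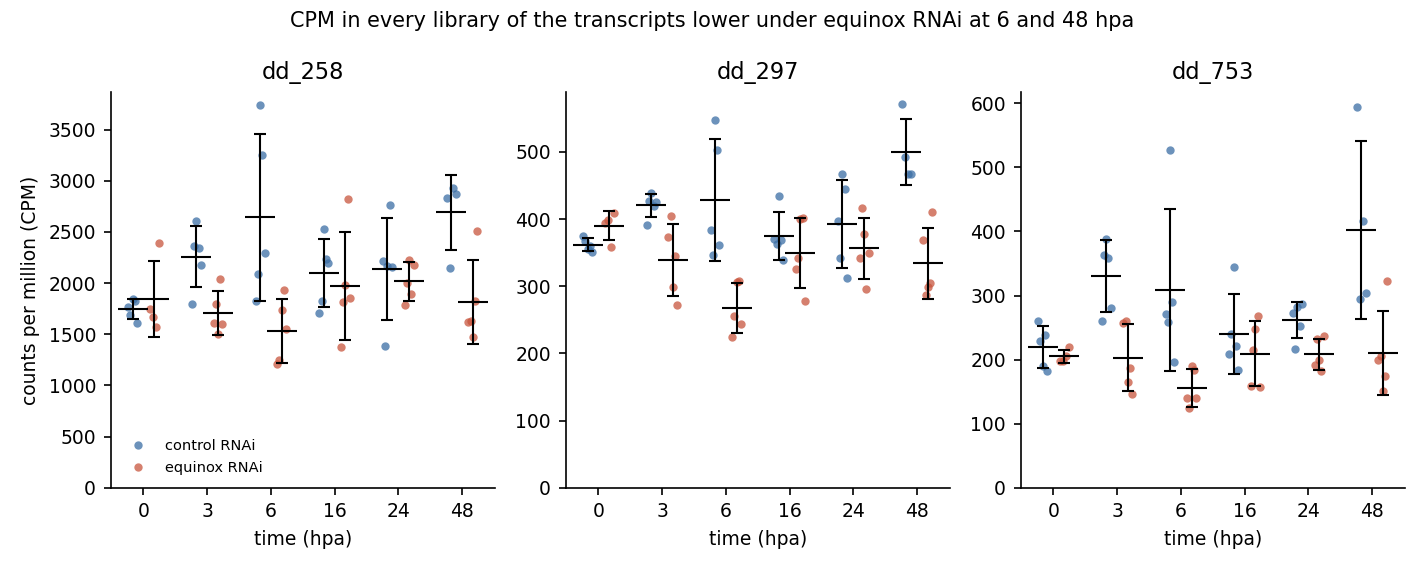
CPM in every library (vertical axis, from 0) of dd_258, dd_297 and dd_753 by time in hpa and RNAi treatment, with group mean ± SD. In the dd_297 panel the libraries labelled *equinox* RNAi reach 308 CPM at 6 hpa and 410.0 CPM at 48 hpa, below the lowest control values of 347 and 467 CPM.

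All 8 transcripts had their highest group mean in control at 48 hpa, and 7 of 8 their lowest in *equinox* RNAi at 6 hpa. dd_505 was the exception, with its lowest mean in control at 0 hpa (399.9 CPM). dd_258 took the most counts, 50.3% of those on the 8 as a mean over the 58 libraries. The table gives no transcript lengths, so this is a share of reads and not of molecules.

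The proportion of dd_505 went from 11.5 ± 1.72% of the counts on the 8 in control at 0 hpa (SD, n = 5) to 16.6 ± 2.31% at 24 hpa (n = 5) and 15.5 ± 3.58% at 48 hpa (n = 4). In the libraries labelled *equinox* RNAi it stood at 12.9 ± 2.53% (n = 4), 14.9 ± 2.70% (n = 5) and 15.9 ± 2.93% (n = 5) at the same times. Its proportion was thus higher at 24 and 48 hpa than at 0 hpa in both treatments as a mean, without a test. That of dd_753 went from 6.35 ± 0.965% to 7.14 ± 2.14% between 0 and 48 hpa in control, and from 5.54 ± 0.727% to 5.48 ± 1.08% in the libraries labelled *equinox* RNAi, differences within the SDs.

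Within groups, the 8 transcripts mostly varied in the same direction from library to library. Over the 58 libraries, the Pearson r of deviations from the group mean of log2 CPM had a median of 0.51 over the 28 pairs and ran from -0.03 (dd_258 with dd_344) to 0.89 (dd_292 with dd_505), with Spearman's rho of -0.03 and 0.89 for these pairs. Among dd_258, dd_297 and dd_753 the 3 correlations lay between 0.57 and 0.63. Among dd_289, dd_292, dd_344, dd_505 and dd_957 the 10 lay between 0.53 and 0.89. Across these 2 sets the 15 had a median of 0.24. Ranked by r with each member, the other members had a median rank of 1450 among all transcripts tested. Of these 56 ranks, 19 lay in the top 100, and for dd_753 none did (best rank 154). The points share libraries, depth and scaling, and the sets were read from these correlations, so they are a description without a test.

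**Figure D4:**
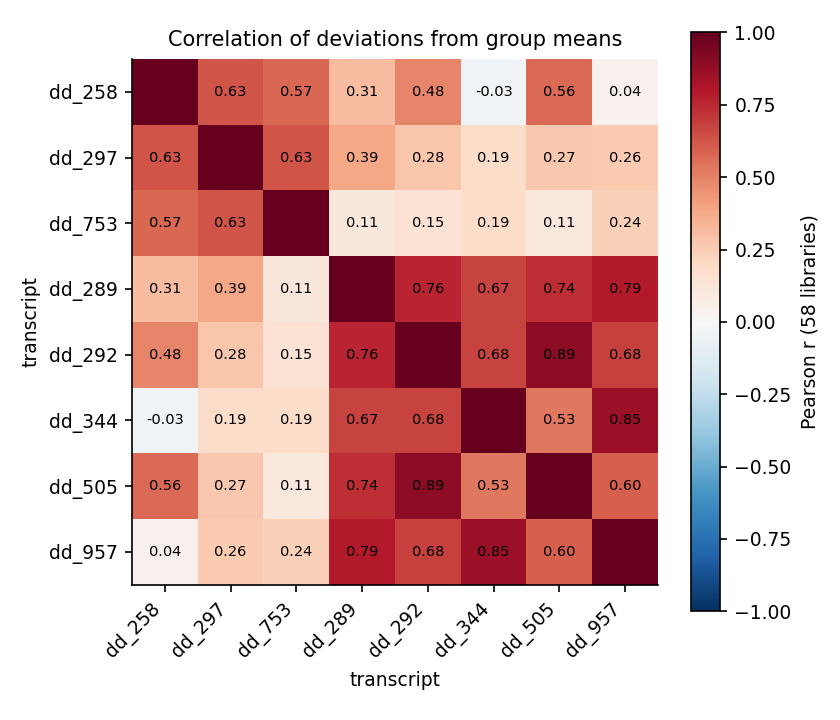
Pearson r between pairs of the 8 transcripts (both axes), over 58 libraries, of the deviations of log2 CPM from group means; red is positive and blue negative. The block of dd_258, dd_297 and dd_753 (0.57 to 0.63) and that of the other 5 (0.53 to 0.89) stand out from the 15 pairs between them, whose median is 0.24.

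The calls are given by set as counts, with no test of a difference between the sets. The 3 transcripts called at 48 hpa between the treatments were dd_258, dd_297 and dd_753, so 3 of 3 of the first set and 0 of 5 of the second. Without control replicate 2 of 48 hpa, dd_292, dd_344 and dd_957 of the second set were called as well, and without *equinox* RNAi replicate 2 dd_957 was called and dd_258 was not. The 4 called at 24 hpa within control were all of the second set, 0 of 3 and 4 of 5. Of the first set, dd_258 was called there too without control replicate 2 of 24 hpa and with the replicate block, and dd_258 and dd_753 when the libraries of 0 and 24 hpa were fitted alone. That last fit called 6948 of 17409 transcripts in either direction, 3564 of them lower. For the fits without 1 library and with the replicate block, calls over all transcripts were not counted. The fold changes themselves overlapped between the sets at 48 hpa, -0.91 to -0.55 for the 3 and -0.69 to -0.34 for the 5, so the split of calls at 48 hpa was not a split of estimates. At 24 hpa in control they did not, at 0.18 to 0.36 for the 3 and 0.41 to 1.04 for the 5.

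The share of the library total on dd_258, dd_297 and dd_753 was 0.233 ± 0.0117% at 0 hpa, 0.279 ± 0.0549% at 24 hpa (n = 5 each) and 0.359 ± 0.0464% at 48 hpa (n = 4) in control. That of the other 5 was 0.114 ± 0.00791%, 0.184 ± 0.0586% and 0.203 ± 0.0501%. Both were higher at 48 than at 0 hpa in control, and in the libraries labelled *equinox* RNAi they were 0.244 ± 0.0397% and 0.236 ± 0.0514% for the 3, and 0.130 ± 0.0294% and 0.142 ± 0.0144% for the 5.

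Outside the 8, the transcripts most like their mean in deviations from the group means were dd_909 (Pearson r 0.84), dd_2119 (0.67), dd_2376 (0.66), dd_2761 (0.66) and dd_6617 (0.65), each over 58 libraries, where the median over all transcripts tested was -0.04. dd_909 had the highest r of these, and its log2 fold changes of -0.33 at 6 hpa and -0.28 at 48 hpa between the treatments were not called (edgeR, adjusted p = 0.565 and 0.615). dd_2376 was lower at both times (-0.40, adjusted p = 0.0263, and -0.34, adjusted p = 0.0366, by edgeR), and dd_2119 at 48 hpa (-0.45, edgeR, adjusted p = 0.00131). The files give these identifiers no name.

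A list of 25 nuclear-encoded transcripts of mitochondrial proteins, named by their human best match in an annotation that covers part of the transcripts, was read from the same fit, and all 25 were tested. The identifiers in this list and in the cilia and muscle lists all start with the same 2 digits. The lists are thus a slice of the transcripts and do not stand for whole classes. Between the treatments at 6 hpa 2 of 25 were called, 1 higher and 1 lower, where 7.66% of all transcripts were called in either direction (list median -0.13). The higher was DNM1L, a GTPase of mitochondrial fission (log2 fold change 0.40 ± 0.12, edgeR, adjusted p = 0.0265), and the lower SLC8B1, the sodium-calcium exchanger of the inner membrane (-0.50 ± 0.16, adjusted p = 0.0391).

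At 48 hpa 6 of 25 were called, 2 higher and 4 lower, where 17.5% of all transcripts were called in either direction (list median -0.20). BCKDHA, a subunit of the branched-chain keto acid dehydrogenase, was at 40.1 ± 7.94 CPM (n = 5) in the libraries labelled *equinox* RNAi against 17.0 ± 3.64 CPM (n = 4) in control (log2 fold change 1.28 ± 0.17, edgeR, adjusted p = 7.9e-08). CISD3, an iron-sulfur protein, was at 2.95 ± 0.511 against 5.56 ± 0.699 CPM (-0.88 ± 0.14, edgeR, adjusted p = 4.0e-06). These 2 transcripts moved in opposite directions.

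The other 4 moved by less. PHB, a prohibitin of the inner membrane, was lower, with a log2 fold change of -0.40 ± 0.09 (edgeR, adjusted p = 0.000532). MCAT of mitochondrial fatty acid synthesis (-0.46 ± 0.11, edgeR, adjusted p = 0.00252) and ATP5PF, a subunit of ATP synthase (-0.24 ± 0.09, edgeR, adjusted p = 0.0403), were lower too. ACSF2, an acyl-CoA synthetase, was higher (0.33 ± 0.09, edgeR, adjusted p = 0.00539). Of the sublists, respiratory chain and ATP synthase had 1 of 6 called, mitochondrial gene expression 0 of 4, import, membrane, fission and iron-sulfur 2 of 7, and metabolism and carriers 3 of 8 by edgeR.

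At 0, 3, 16 and 24 hpa 2, 4, 0 and 0 of the 25 were called between the treatments, where 1.42%, 11.3%, 0.606% and 1.25% of all transcripts were called in either direction. Within control at 48 hpa 8 of 25 were called, 3 higher and 5 lower (29.5% of all transcripts in either direction), with a list median of -0.07, beside 7 of 8 higher among the mitochondrial transcripts. The interaction at 48 hpa gave 4 of 25, 2 in each direction (5.08% of all transcripts). The summed CPM of the 25 lay at 1371 to 1439.9 in control and 1344 to 1382 in the libraries labelled *equinox* RNAi at 48 hpa. Control sums of the respiratory chain and ATP synthase sublist averaged 440, 442, 398, 362, 371 and 429 CPM in order of time. The sums in the libraries labelled *equinox* RNAi averaged 419, 393, 346, 361, 382 and 368 CPM, higher than control only at 24 hpa. Single libraries lay apart only at 3 hpa (372 to 417 CPM, control 422 to 463). These sums were not tested.

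**Figure D5:**
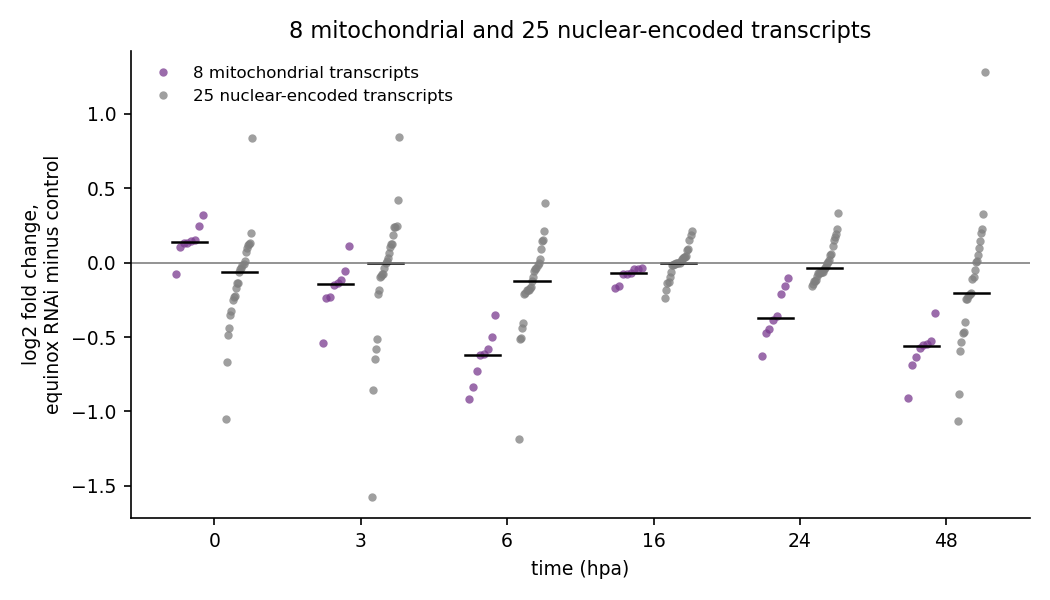
Log2 fold change of *equinox* RNAi minus control (vertical axis) at each time in hpa for the 8 mitochondrial transcripts and the 25 nuclear-encoded transcripts; points are transcripts and bars their medians. At 6 hpa the medians are -0.62 for the 8 and -0.13 for the 25, and at 48 hpa -0.56 and -0.20.

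Transcripts of other cell types were read from the same fit. The summed CPM of the 9 motile cilia transcripts at 48 hpa ranged from 177 to 248 in control and from 213 to 256 in the libraries labelled *equinox* RNAi, with 2 of 9 called, both higher, where 17.5% of all transcripts were called in either direction. For the 3 muscle transcripts the ranges were 406 to 516 and 351 to 471 CPM, with 2 of 3 called, both higher although the sum was not, beside the same 17.5% of all transcripts in either direction. They were ACTN2 (log2 fold change 0.67, edgeR, adjusted p = 0.000491) and LDB3 (1.29, edgeR, adjusted p = 3.0e-09). The muscle sum was mostly the third transcript, ATP2A2, with a mean of 415 CPM over the 58 libraries. ACTN2 and LDB3 had means of 10.1 and 12.1 CPM. At 6 hpa 1 of 9 cilia transcripts was called, lower (LRRC23), and 0 of 3 muscle transcripts, where 7.66% of all transcripts were called in either direction and 3.96% lower. LRRC23 had a mean of only 0.615 CPM over the 58 libraries, and 6 of the 9 cilia estimates at 6 hpa were above 0. The part of a changed mixture of cells in the mitochondrial values was not tested.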

How the data were processed

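The authors isolated polyadenylated RNA, sequenced it in 50 bp reads, aligned these with bowtie to the dd_Smed_v6 transcriptome, used bedtools for counting and added up the contigs belonging to 1 transcript. The submitters' processing notes name Bowtie 1.2, cutadapt 1.8, SAMtools 1.6 and DESeq, and the methods give another bowtie version. The deposited values are raw counts per transcript, with 0 columns left unmapped to a sample. How a read that matched several places was counted could move counts between similar transcripts.

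Libraries were grouped by the RNAi and time of their titles into 12 groups. One edgeR 4.0.16 model (R 4.3.3, limma 3.58.1) was fitted to all 58 libraries, with TMM size factors, filterByExpr at a minimum count of 10, robust quasi-likelihood tests, and Benjamini-Hochberg adjustment over the 20129 transcripts tested, at a threshold of 0.05. The filter kept at least 99.9% of the counts of each library. CPM and shares use the whole library total. Correlations use log2 CPM with a prior count of 2. The edgeR step was tested on counts simulated from its own fit, with libraries independent by construction. Label errors and technical replicates were outside that test.

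The members and lists were chosen with earlier results of these data known. All 8 are named where called. The targeted transcript, the called members of the nuclear-encoded list at 48 hpa (at most 6) and the 5 transcripts most like the mean of the 8 are also named by rule, while DNM1L, SLC8B1, LRRC23 and the muscle transcripts were named after their values were seen. List names come from human best matches in 1 annotation table of the study, the one whose older identifiers match its rows. The table for *equinox* RNAi gave other names on all shared rows and was not used. The names thus rest on the first table alone. Within groups no library was a repeat of another, since chi-square over degrees of freedom was at least 2.59 for each pair of replicates, and pairs across groups were not compared. Replicate numbers were not treated as pairs, since in only 1 of 16 comparisons did every pair of deviations correlate above 0.1 (*equinox* RNAi at 16 against 0 hpa), and in 0 did every library correlate best with its own number. Alternatives were RLE size factors, no filter, DESeq2 1.42.0, separate fits of the groups in each comparison, a replicate block, dropping the 5 libraries with contradictory times or moving them to the other time, and dropping single libraries. A minimum of 5000000 counts per library was added after seeing the data.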

Additional observations from a re-analysis of the deposited data

Results flagged for a closer look

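In groups of 4 or 5 libraries, 108 sets of values (the share and each of the 8 transcripts in 12 groups) were searched for a library that stood apart by Dixon's 95% limit, and 4 had one. Chance flags about 1 in 20 groups. The share of *equinox* RNAi replicate 5 at 48 hpa, 0.445%, stood above the other 4 libraries (0.341% to 0.371%). For dd_258, control replicate 2 at 48 hpa held 2145 CPM, below the other 3 (2827 to 2929 CPM). For dd_753, control replicate 3 at 6 hpa held 527 CPM, above the other 4 (196 to 289.9 CPM). For dd_505, *equinox* RNAi replicate 4 at 16 hpa held 657 CPM, above the other 4 (394 to 462 CPM).

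In the interaction test of edgeR given in the report, the change of dd_297 since 0 hpa was called different between the treatments. The estimates were -0.75 on the log2 scale at 6 hpa and -0.68 at 48 hpa. At 6 hpa the call was kept in 5 of the 8 other fits, and at 48 hpa in all 8. Both rest on the libraries labelled *equinox* RNAi at 0 hpa, where the mean of the targeted transcript went against the labels.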

How the results depend on the processing

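The 24 calls of single mitochondrial transcripts were all kept with RLE size factors, DESeq2 and the replicate block, and none reversed in any fit. No filter kept 21, dropping the 5 libraries with contradictory times or moving them by time field 22, the 5000000 count minimum (chosen after seeing the data) 20 and separate fits of the groups in each comparison 17. The cause of the losses was not tested. Calls over all transcripts were counted only in the main fit and the separate fits. A change of count in any other fit cannot be told from a general change in calls.

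Between the treatments at 3 hpa the count of 1 fell to 0 without a filter and under the count minimum. At 48 hpa the count of 3 became 2 with the 5 libraries dropped or moved by time field. At 6 hpa the count of 5 became 3 without a filter, 3 under the count minimum and 0 in the separate fits. Within control the count at 3 hpa became 3 in that fit, and at 6 hpa 3 with RLE, 4 with DESeq2 and 0 under the count minimum. The interaction at 6 hpa became 2 with the replicate block and 0 with the 5 libraries left out, placed by time field, or in the separate fits. At 48 hpa it became 2 with the block, by time field and with DESeq2. The block shares only numbers between libraries, and it moved no other count of the 8 by over 1.5 times. Leaving out 1 library gave 0 to 1 at 3 hpa, 3 to 6 at 6 hpa and 2 to 6 at 48 hpa between treatments, 0 to 4 at 6 hpa in control, and 0 to 1 and 1 to 2 for the interactions at 6 and 48 hpa.

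For the nuclear-encoded list, the count between treatments became 0 by time field at 0 hpa, and at 6 hpa 1 without a filter, with the 5 libraries left out and under the count minimum, and 0 in the separate fits. In control it became 0 at 3 hpa under every alternative but the replicate block (1) and the separate fits (4), at 6 hpa 2 with RLE and DESeq2 and 0 by time field, under the count minimum and in the separate fits, and at 24 hpa 6 without a filter. In *equinox* RNAi it became 2 at 16 hpa by time field and in the separate fits. The interaction became 0 at 6 hpa under the same 2 alternatives, and at 24 hpa 2 with the 5 libraries left out and 1 with DESeq2. Leaving out 1 library gave 0 to 2, 1 to 6 and 0 to 2 between treatments at 0, 3 and 6 hpa, 0 to 1, 0 to 3 and 5 to 10 in control at 3, 6 and 24 hpa, 1 to 4 and 1 to 2 in *equinox* RNAi at 16 and 48 hpa, and 0 to 1, 0 to 2 and 2 to 6 for the interactions at 6, 24 and 48 hpa.

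Taking the 100 most abundant transcripts out of the total, except dd_258, which is one of them and stayed in both the sum and the total, raised the mean share of every group, to 0.452%, 0.576%, 0.639%, 0.512%, 0.615% and 0.731% in control and 0.492%, 0.457%, 0.394%, 0.486%, 0.535% and 0.494% in *equinox* RNAi, in order of time. Without dd_258 in the sum, dd_505 made up 23.2%, 30.8% and 29.7% in control and 25.5%, 29.5% and 30.2% in *equinox* RNAi at 0, 24 and 48 hpa. The lowest count of any of the 8 in a library was 89, so counting error limits dd_957 most.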
